A study of Mus musculus with 10 samples.

Results

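Collagens, laminins and related matrix glycoproteins were followed across mouse 4T1 mammary carcinoma cells carrying hairpins against 1 of 2 secreted protease inhibitors. The genes were taken by symbol: collagen chains, laminin chains, nidogens, fibulins, fibrillins, Hspg2 (perlecan), Agrn (agrin), Fn1 (fibronectin), Tnc (tenascin C), Vcan (versican) and Eln (elastin). This gave 69 of the 23479 rows of the deposited table, of which 23 were grouped as basement membrane genes, 41 as interstitial matrix genes and 5 as neither (Col7a1 of anchoring fibrils and the membrane collagens). Of the 69 genes, 32 reached a mean of at least 10 normalized counts over all libraries and were tested. The other 37 had reads but a lower mean.

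The 10 RNA-seq libraries came from clone 4T1-T, a line grown from a single 4T1 cell, and form 5 groups of 2 libraries, called A and B. Groups shSerpine2-1 and shSerpine2-2 carry different hairpins against Serpine2 (protease nexin 1, an inhibitor of serine proteases), shSlpi-1 and shSlpi-2 carry different hairpins against Slpi (secretory leukocyte protease inhibitor), and shRenilla carries a hairpin against a luciferase and is the control. All groups share the clone, the infection with a hairpin and the serum medium, and each knockdown is represented by 2 infected lines. The labels do not say whether libraries A and B are separate cultures, so a p-value here covers library-to-library spread only, and that spread may be technical. Both pooled comparisons below use the same pair of shRenilla libraries.

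A basement membrane is a thin sheet under epithelia built from a network of laminin trimers, each with an α, a β and a γ chain, and a network of type IV collagen, joined by nidogens, perlecan and agrin. The interstitial matrix behind it consists of fibrillar collagens, the collagens and fibronectin attached to them, tenascins and the elastic fibre proteins. In mammary tissue epithelial cells contribute laminin chains, while fibroblasts are the usual source of fibrillar collagen. Carcinoma cells can keep making basement membrane chains, and laminin-332, which holds the Lama3 and Lamb3 chains, is known for its presence at invading tumour edges.

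Each library held 15877431 to 24026620 reads in genes. Serpine2 had 128 and 139 normalized counts with shSerpine2-1 and 489 and 514 with shSerpine2-2, against 3256 and 3145 with shRenilla, and Slpi had 145 and 147 with shSlpi-1 and 60.9 and 75.8 with shSlpi-2, against 1189 and 1313 with shRenilla. Serpine2 also had 1331 to 1731 normalized counts in the 4 Slpi libraries, below both controls. Slpi had 326 and 414 in the shSerpine2-1 libraries, below the controls, and 1111 and 1218 in the shSerpine2-2 libraries, which overlapped them. Serpine2 lowered and Slpi lowered, as used below, name only the target of the hairpins. The part of the other inhibitor's fall in the matrix results was not tested. All 6 epithelial markers were expressed, with summed levels of 22628 to 23972 normalized counts in the Serpine2 knockdowns and 24200 to 27748 in the Slpi knockdowns, against 19825 to 20252 in shRenilla. Of 6 fibroblast markers 1 reached the filter (Pdgfra), with a summed list of 623 to 769 in the Serpine2 knockdowns and 449 to 645 in the Slpi knockdowns, against 884 to 903 in shRenilla, and Lum had a mean under 1. Of 6 endothelial markers Tie1 alone reached it and Emcn had a mean under 1, with list sums of 37.8 to 66.2 in the Serpine2 knockdowns and 38.5 to 137 in the Slpi knockdowns, against 30.6 to 51.8 in shRenilla. Of 6 leukocyte markers Cd68 alone reached it, with list sums of 142 to 152 in the Serpine2 knockdowns and 123 to 175 in the Slpi knockdowns, against 145 in both shRenilla libraries. The part of these marker levels in the matrix results was not tested, and in bulk RNA fewer cells of a kind cannot be told apart from less RNA per cell. The shSlpi-2 libraries stood apart. Their counts differed, as squared differences, 9.66 times as much as sampling noise (chi-square per degree of freedom), against 1.51 to 2.64 in the other groups. They also held more reads in weakly read genes, as described at the end. The tests below shared 1 estimate of spread per gene over the 5 groups, so their p-values do not reflect the spread of shSlpi-2 alone.

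Per kilobase of exon, the 10 highest genes included Fn1, Col8a1, Lamc1, Lamb1, Col4a2, Col4a1, Fbln2, Hspg2 and Agrn. Fn1, the adhesive glycoprotein that cells bind through integrins, averaged 4101 normalized counts per kb (range over the 10 libraries 3736 to 4601). Col8a1, a short-chain collagen of vessel and corneal sheets, averaged 1801 (1659 to 1903). The ranges of these 2 genes did not overlap each other or that of Lamc1, at 1467 (1329 to 1621), the γ1 chain shared by most laminins. Below it the ranges of neighbours overlapped: Lamb1 (β1 chain) averaged 895, Col4a2 848, Col4a1 769 and Fbln2, a fibulin that bridges laminin and fibronectin, 767. Perlecan (Hspg2) at 345 and agrin (Agrn) at 341 formed a lower step with Lama5 (α5), at 307. The order depends on the length used. Lamb1 has 9.917 kb of exon but a longest transcript of 5.784 kb, where Lamc1 has 8.272 and 7.622 kb.

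**Figure D1:**
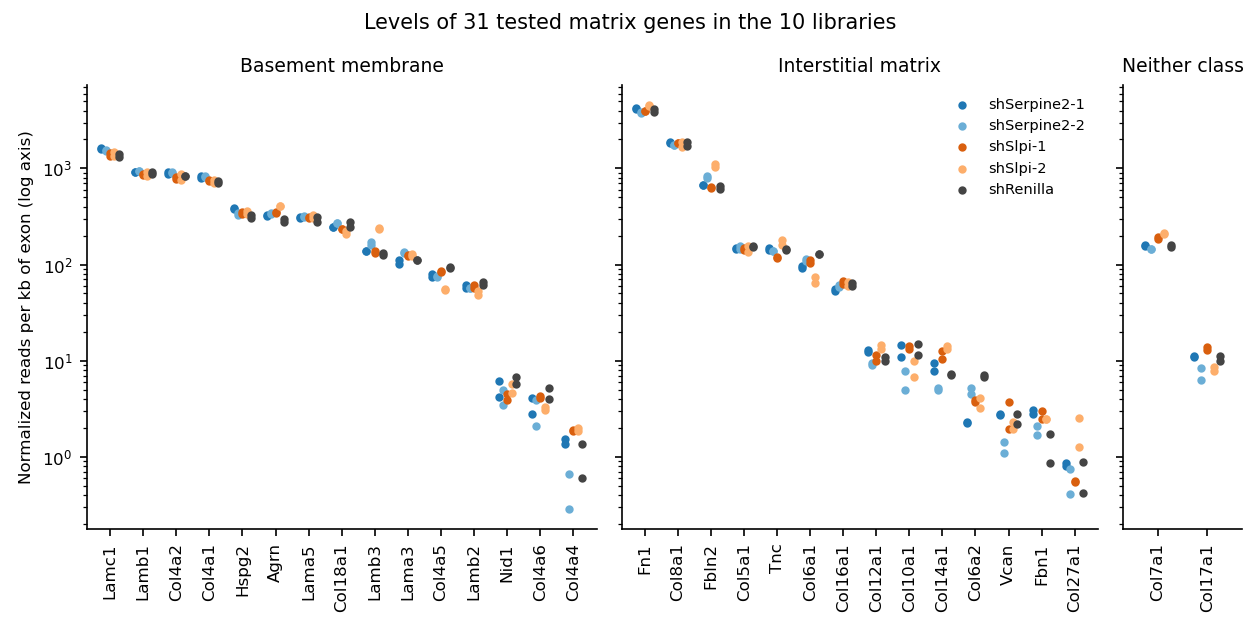
Normalized reads per kb of exon (log axis) for 31 tested genes, with 1 point per library, coloured by group, and genes ordered within each class by mean level. Levels span from 4101 for Fn1 to 0.903 for Col27a1, and the basement membrane panel runs down from Lamc1 at 1467 normalized counts per kb.

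Among α chains the lines read Lama5 and, at 120 normalized counts per kb, Lama3, while Lama1, Lama2 and Lama4 had means of 3.73, 5.44 and 2.85 normalized counts in all. Among β chains Lamb1 led over Lamb3, at 162, and Lamb2, at 57.8 normalized counts per kb. Col4a1 and Col4a2, whose products form the common type IV collagen trimer, stood close together, with Col4a1 at 0.848 to 0.977 of Col4a2 per kb over the 10 libraries. Their start sites lie 21 bases apart on opposite strands of chromosome 8, where the genes overlap. The other type IV pairs were low: Col4a5 and Col4a6 averaged 76.7 and 3.67, and Col4a3 did not reach the filter. Nid1 averaged 4.98 normalized counts per kb, and Nid2 was below the filter.

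Most fibrillar collagen chains were barely read. Col1a1 had a mean of 8.45 normalized counts, Col1a2 3.40, Col2a1 9.77, Col5a2 2.01 and Col3a1 0.469, with no read of Col3a1 in 7 of 10 libraries. Col5a1, the α1 chain of type V collagen, was read at 149 normalized counts per kb (136 to 157) without its usual partner Col5a2. Likewise Col6a1, a chain of the beaded type VI filament, averaged 102 per kb, against 4.28 for Col6a2, and Col6a3 had a mean of 9.60 normalized counts. Eln, the elastin gene, had a mean of 5.44 normalized counts and Fbn1, the main fibrillin, 2.26 per kb.

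Pooled over both hairpins, with Serpine2 lowered, Agrn, Lamb3, Lamc1 and Fbln2 were among the genes that rose, and Col6a1, Col6a2 and Col4a5 fell. Some of these were not called with 1 hairpin alone, as given below. Of the 32 tested genes, 8 rose and 3 fell, where 10.7% and 10.8% of all 12299 genes tested rose and fell. Among basement membrane genes 6 of 16 rose (among them Agrn, Lamb3, Lamc1, Hspg2 and Col4a1) and 1 fell (Col4a5). Among interstitial genes 2 of 14 rose (Fbln2, Fbn1) and 2 fell (Col6a1, Col6a2), and neither of the other 2 tested genes was called. The median log2 fold change was 0.08 for the basement membrane genes and -0.03 for the interstitial ones, beside -0.00 for all genes, and no test compared the classes. All calls here have an adjusted p under 0.05 in limma (Benjamini-Hochberg over all 12299 genes, log2 of normalized count + 1). Without shRenilla B, 2 of the 11 remained (Col6a2 and Fbn1), while the calls over all genes went down to 766 in place of 2643. With each infected line taken as 1 unit, shRenilla is a single unit whose spread is assumed to be that of the knockdown lines, and 2 residual degrees of freedom remain; limma then called 0 genes of all tested (499 at an unadjusted p under 0.05, 2 of them members), so this fit could hardly pass the threshold and says little on any gene.

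Pooled over both hairpins, with Slpi lowered, Lamb3, Agrn and Col7a1 were among the genes that rose and Col4a5 and Col6a1 among those that fell. Some of these were not called with shSlpi-1 alone, as given below. Of the 32 genes, 10 rose and 4 fell, where 16.5% and 18.3% of all genes tested rose and fell. Among basement membrane genes 6 of 16 rose (among them Agrn, Lamb3, Lama3, Hspg2 and Col4a4) and 2 fell (Col4a5, Col18a1). Among interstitial genes 3 of 14 rose (Fbln2, Col14a1, Fbn1) and 2 fell (Col6a1, Col6a2), and Col7a1, in neither class, rose. The class medians were 0.02 and 0.01 beside -0.01 for all genes. With each infected line as 1 unit, limma called 0 genes (1281 at an unadjusted p under 0.05, 6 of them members), and with shSlpi-1 alone as the knockdown 8 members were called in place of 14 and 2156 of all genes in place of 4281.

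**Figure D2:**
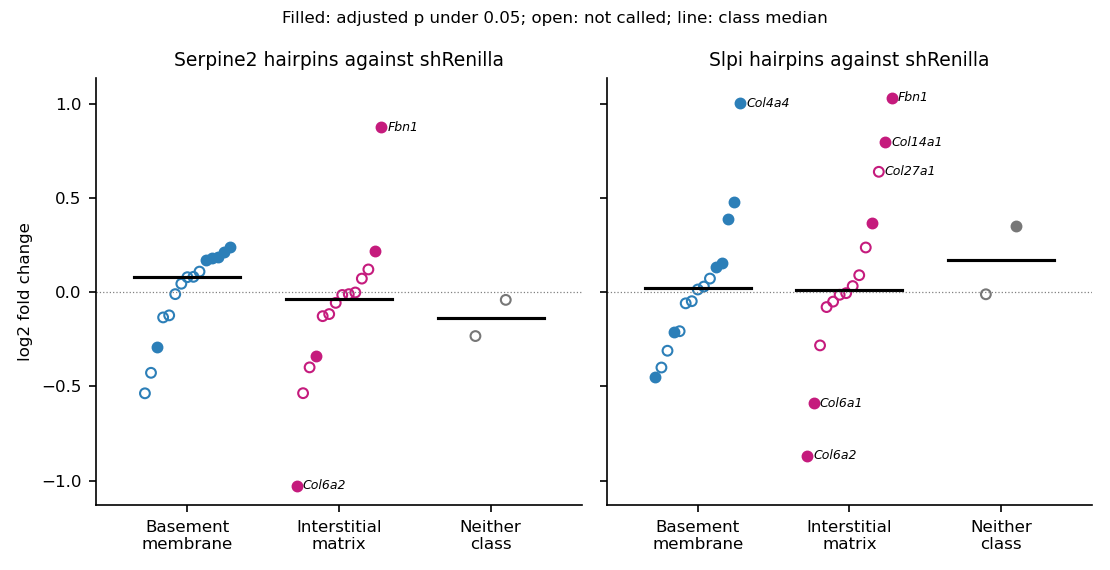
Log2 fold change of 31 tested genes against shRenilla, by class, for the Serpine2 hairpins (left) and the Slpi hairpins (right); filled points have an adjusted p under 0.05 and lines mark the medians of the 32 tested genes by class. Basement membrane medians sit at 0.08 and 0.02 and interstitial medians at -0.03 and 0.01, while single genes reach 0.88 and -1.03 on the left and 1.03 and -0.87 on the right.

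Promoter sequence is shown for 5 genes the comparisons turn on. Agrn and Lamb3 were called higher in both pooled comparisons, and Col6a1 and Col6a2 were called lower. The window of Col4a1 reaches across the start of Col4a2. The windows hold 250 bases before to 50 after a RefSeq start on GRCm38.p6, read 5′ to 3′ on the gene's strand, at chr4:156197439-156197738 (minus), chr1:193301744-193302043 (plus), chr10:76725995-76726294 (minus), chr10:76623355-76623654 (minus) and chr8:11312777-11313076 (minus). Capitals mark matches on either strand to TGANTCA (the AP-1 element), to GGGCGG (the GC box), to the CCAAT motif or to TATAAA (the TATA box), and matches may overlap.
Agrn: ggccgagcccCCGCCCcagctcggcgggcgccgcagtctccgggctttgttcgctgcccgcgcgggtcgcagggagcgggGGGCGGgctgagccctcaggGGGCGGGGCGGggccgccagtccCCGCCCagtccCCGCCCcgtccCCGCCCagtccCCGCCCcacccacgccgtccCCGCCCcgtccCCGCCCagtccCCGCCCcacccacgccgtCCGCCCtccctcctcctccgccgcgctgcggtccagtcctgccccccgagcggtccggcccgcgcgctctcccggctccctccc
Lamb3: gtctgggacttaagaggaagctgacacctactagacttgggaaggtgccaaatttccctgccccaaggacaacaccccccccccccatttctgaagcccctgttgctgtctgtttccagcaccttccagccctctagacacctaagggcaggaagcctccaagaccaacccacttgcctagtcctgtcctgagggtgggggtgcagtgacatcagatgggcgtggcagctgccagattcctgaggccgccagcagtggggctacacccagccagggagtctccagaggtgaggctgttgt
Col6a1: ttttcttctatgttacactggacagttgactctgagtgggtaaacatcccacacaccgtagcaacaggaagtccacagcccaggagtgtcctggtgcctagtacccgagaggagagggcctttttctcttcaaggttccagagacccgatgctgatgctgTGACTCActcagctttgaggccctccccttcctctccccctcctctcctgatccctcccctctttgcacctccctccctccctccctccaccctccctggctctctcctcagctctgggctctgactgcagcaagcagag
Col6a2: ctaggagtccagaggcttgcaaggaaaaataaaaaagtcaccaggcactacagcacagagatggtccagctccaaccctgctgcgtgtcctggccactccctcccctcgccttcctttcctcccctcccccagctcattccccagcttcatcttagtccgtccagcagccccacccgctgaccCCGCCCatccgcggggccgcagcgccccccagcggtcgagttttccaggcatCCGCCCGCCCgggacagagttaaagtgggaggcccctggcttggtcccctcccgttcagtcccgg
Col4a1: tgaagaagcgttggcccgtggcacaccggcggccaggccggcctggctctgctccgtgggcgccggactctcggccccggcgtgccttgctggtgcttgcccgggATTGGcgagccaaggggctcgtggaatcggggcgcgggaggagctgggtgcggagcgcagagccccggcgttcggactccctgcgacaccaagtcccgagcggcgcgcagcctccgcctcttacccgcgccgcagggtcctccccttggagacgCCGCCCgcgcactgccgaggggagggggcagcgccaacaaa
The Agrn window held 12 GC boxes, Col6a2 held 3, Col4a1 held 1 with 1 CCAAT box, and Lamb3 had no match to these letters. Agrn, Col6a2 and Lamb3 have another RefSeq start that is not shown. Its window held 2 GC boxes for Agrn, 1 for Col6a2 and no match for Lamb3. Col6a1 held 1 AP-1 element, which begins at position -90 from the start. Of the 32 tested genes 26 had a promoter in the RefSeq table (50 of all 69). Of those 26, 20 held a GC box, 10 a CCAAT box, 3 a TATA box and 1 an AP-1 element, where 35.6%, 37.4%, 13.6% and 7.81% of the 32817 promoters in the table held them. Members were counted by the first start listed for each gene, and the table by every distinct window. A match describes the letters in these windows.

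Lamb3 (chr1:193207699-193343878, plus strand, GRCm38), the β3 chain of laminin-332, had 913 and 918 normalized counts with shSerpine2-1, 1142 and 1064 with shSerpine2-2, 912 and 873 with shSlpi-1 and 1587 and 1566 with shSlpi-2, against 870 and 833 with shRenilla. No knockdown library was below the controls, but shSlpi-1 B lay just above shRenilla A, and the pooled rises of 0.24 (SE 0.05, adjusted p = 0.00489 in limma) with Serpine2 lowered and 0.48 (SE 0.05, adjusted p = 5.31e-06 in limma) with Slpi lowered came mainly from the second hairpin of each target. Against shRenilla, shSlpi-1 gave 0.07 (adjusted p = 0.507 in limma) and shSlpi-2 0.89 (adjusted p = 2.40e-08 in limma), while shSerpine2-1 gave 0.11 (adjusted p = 0.317). Without shRenilla B the Serpine2 value was 0.21 (adjusted p = 0.0999). Lama3, the α3 chain, had 1364, 1322, 1378 and 1315 normalized counts in the 4 Slpi libraries, against 1206 and 1207 with shRenilla. Its rise of 0.16 (SE 0.05, adjusted p = 0.0304 in limma) was lost on leaving out shRenilla A, shRenilla B or shSlpi-1 A (adjusted p = 0.136, 0.143 and 0.0768) at a log2 fold change of 0.16, 0.16 and 0.15, and shSlpi-1 alone gave 0.15 (adjusted p = 0.0951). With Serpine2 lowered Lama3 stood at 0.08 (SE 0.05, adjusted p = 0.297), and its hairpins differed, as given further on.

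Lamc1, the γ1 chain, had 13106 and 13407 normalized counts with shSerpine2-1 and 12824 and 12599 with shSerpine2-2, against 11820 and 10993 with shRenilla. All 4 knockdown libraries exceeded the controls, with a log2 fold change of 0.19 (SE 0.05, adjusted p = 0.00877 in limma), or 0.14 (adjusted p = 0.192) without shRenilla B. The 4 Slpi libraries, at 11186 to 12159, overlapped the control range. Lamb1 gave 0.05 (SE 0.04) and -0.05 (SE 0.04) with Serpine2 and Slpi lowered, and Lama5 gave 0.08 (SE 0.05) and 0.07 (SE 0.05), none of them called.

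As a ratio per kb, Lama3 stood at 0.324 and 0.363 of Lama5 with shSerpine2-1, 0.425 and 0.422 with shSerpine2-2, 0.408 and 0.408 with shSlpi-1 and 0.426 and 0.377 with shSlpi-2, against 0.361 and 0.403 with shRenilla. The shSerpine2-2 and shSlpi-1 libraries lay above both controls and the other 2 lines overlapped them. Lamb2, the β2 chain, relative to Lamb1 was 0.0599 to 0.0679 in the Serpine2 libraries, below both controls, and 0.0526 to 0.0705 in the Slpi libraries, which overlapped them, against 0.0717 and 0.0694 in shRenilla. Lama5 relative to Lamc1 was 0.188 to 0.207 in the Serpine2 libraries and 0.205 to 0.239 in the Slpi libraries, against 0.218 and 0.210 in shRenilla. These ratios were not tested.

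Agrin rose in each line. Agrn (chr4:156165290-156197488, minus strand), the heparan sulfate proteoglycan whose promoter is shown above, had 3013 and 2995 normalized counts with shSerpine2-1, 3224 and 3146 with shSerpine2-2, 3204 and 3296 with shSlpi-1 and 3768 and 3728 with shSlpi-2, against 2748 and 2583 with shRenilla. The groups did not overlap the control. The log2 fold change was 0.22 (SE 0.04, adjusted p = 0.00213 in limma) with Serpine2 lowered and 0.39 (SE 0.04, adjusted p = 4.11e-06 in limma) with Slpi lowered; without shRenilla B the Serpine2 value was 0.17 (adjusted p = 0.0783).

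Hspg2, perlecan, had 5583 and 5395 normalized counts with shSerpine2-1, 4857 and 4670 with shSerpine2-2, 5029 and 4799 with shSlpi-1 and 4776 and 5197 with shSlpi-2, against 4659 and 4341 with shRenilla. The lowest knockdown library lay just above the higher control. Its changes of 0.18 (SE 0.05, adjusted p = 0.0108 in limma) with Serpine2 lowered and 0.14 (SE 0.05, adjusted p = 0.0324 in limma) with Slpi lowered were both lost without shRenilla B, at 0.13 (adjusted p = 0.209) and 0.09 (adjusted p = 0.347). Hairpin shSerpine2-2 alone gave 0.08 (adjusted p = 0.277) and shSlpi-1 alone 0.13 (adjusted p = 0.123). The Slpi call was also lost without shSlpi-1 A (adjusted p = 0.0967), and without either shSerpine2-1 library, which only share the estimate of spread (adjusted p = 0.0518 for each).

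Type IV collagen split by chain. Col4a1 had 6245 and 5970 normalized counts with shSerpine2-1 and 6159 and 6121 with shSerpine2-2, against 5584 and 5303 with shRenilla, a change of 0.17 (SE 0.04, adjusted p = 0.0125 in limma) that was lost without shRenilla B (0.13, adjusted p = 0.197) or shSerpine2-1 A (0.15, adjusted p = 0.0567). Its neighbour Col4a2 gave 0.11 (SE 0.05, adjusted p = 0.139). With Slpi lowered neither was called, at 0.02 (SE 0.04) for Col4a1 and -0.06 (SE 0.05) for Col4a2.

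Col4a5 (chrX:141475385-141689234, plus strand), a chain of the type IV trimers of kidney and skin, went down. It had 529 and 492 normalized counts with shSerpine2-1, 502 and 515 with shSerpine2-2, 564 and 572 with shSlpi-1 and 369 and 365 with shSlpi-2, against 612 and 636 with shRenilla. Every knockdown library was below both controls, and shSlpi-2 was lowest. Col4a5 fell by 0.29 on the log2 scale (SE 0.07, adjusted p = 0.00469 in limma) with Serpine2 lowered and by 0.45 (SE 0.07, adjusted p = 6.48e-05 in limma) with Slpi lowered. The Serpine2 value was -0.26 (adjusted p = 0.0892) without shRenilla B, and shSlpi-1 alone gave -0.14 (adjusted p = 0.244). Relative to Col4a1 per kb, Col4a5 stood at 0.0906 to 0.0941 in the Serpine2 libraries and 0.0713 to 0.114 in the Slpi libraries, against 0.122 and 0.133 in shRenilla.

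Col18a1, the collagen from which endostatin is cut, had 1650, 1630, 1450 and 1566 normalized counts in the 4 Slpi libraries, against 1926 and 1723 with shRenilla. It fell by 0.21 (SE 0.05, adjusted p = 0.00535 in limma), or by 0.13 without shRenilla A (adjusted p = 0.155), and shSlpi-1 alone gave -0.15 (adjusted p = 0.104). Col4a4, whose mean was 14.3 normalized counts and which is named after its values were seen, had 20.2, 19.8, 21.3 and 19.9 in the Slpi libraries, against 6.32 and 14.3 in shRenilla. Its group means also ran in the order of the weakly read genes described at the end. Its rise of 1.00 (SE 0.38, adjusted p = 0.0472 in limma) was lost without shRenilla A (0.47, adjusted p = 0.471) and without shSerpine2-1 A, shSerpine2-1 B, shSlpi-1 A, shSlpi-1 B or shSlpi-2 A, and with either hairpin alone as the knockdown (adjusted p = 0.133 for shSlpi-1 and 0.0678 for shSlpi-2).

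**Figure D3:**
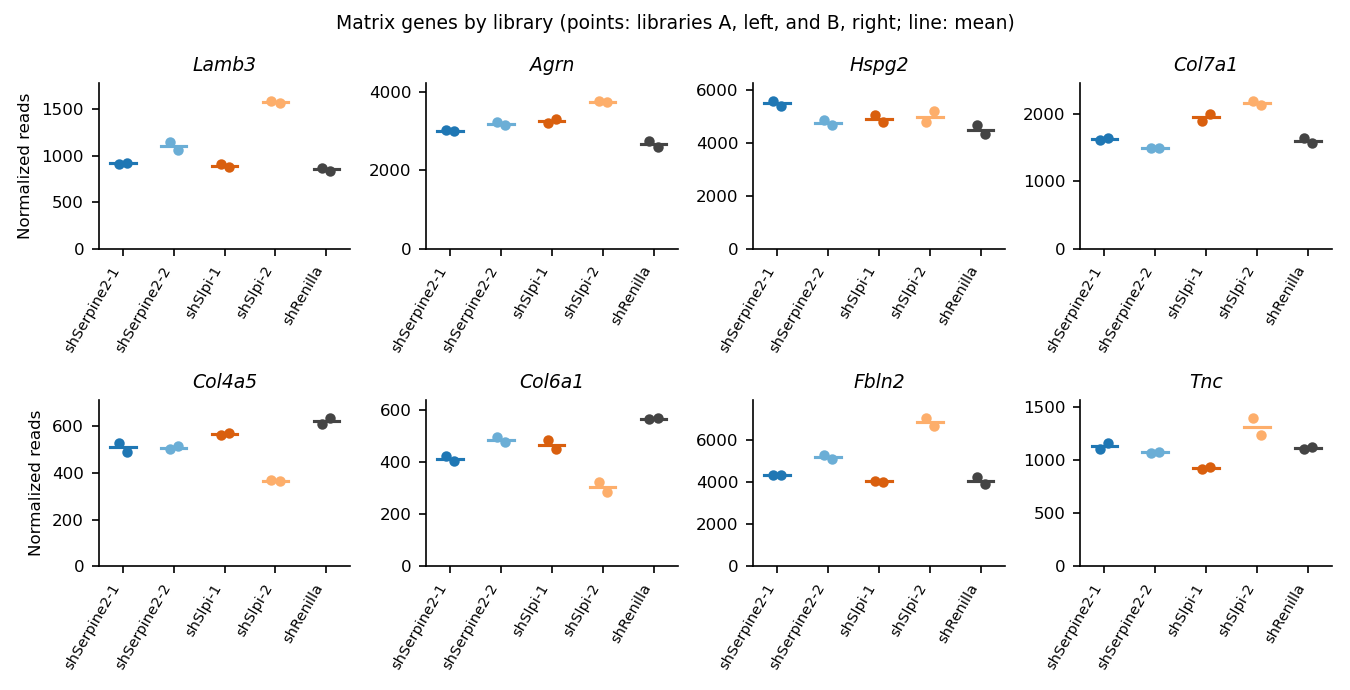
Normalized counts of 8 genes in each library (points, A left and B right) with the group mean (line), axes starting at 0. Agrn lies above the control in all 4 lines and Col7a1 in both Slpi lines, Col4a5 and Col6a1 lie below it in all 4, and Lamb3, Fbln2 and Tnc are high in shSlpi-2 (1566 to 1587, 6640 to 7027 and 1229 to 1392).

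Among interstitial genes, pooled over hairpins, fibulin 2 rose and the type VI collagen chains Col6a1 and Col6a2 fell. The other type VI chains were below the filter and not tested. Fbln2 (chr6:91212455-91272540, plus strand) had 4327 and 4312 normalized counts with shSerpine2-1, 5265 and 5107 with shSerpine2-2, 4052 and 4010 with shSlpi-1 and 7027 and 6640 with shSlpi-2, against 4228 and 3902 with shRenilla. The shSlpi-1 libraries lay inside the control range, so the pooled Slpi value of 0.37 (SE 0.04, adjusted p = 9.56e-06 in limma) rests on shSlpi-2: shSlpi-1 gave -0.01 (adjusted p = 0.914 in limma) and shSlpi-2 0.75 (adjusted p = 1.68e-08 in limma). With Serpine2 lowered the change was 0.22 (SE 0.04, adjusted p = 0.00218 in limma), with 0.09 (adjusted p = 0.299) for shSerpine2-1 alone and 0.16 (adjusted p = 0.0929) without shRenilla B.

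Col6a1 (chr10:76708792-76726168, minus strand), the AP-1 bearing promoter above, had 422 and 404 normalized counts with shSerpine2-1, 495 and 478 with shSerpine2-2, 485 and 451 with shSlpi-1 and 325 and 284 with shSlpi-2, against 565 and 570 with shRenilla. The controls were above all 8 knockdown libraries. It fell by 0.34 (SE 0.07, adjusted p = 0.00433 in limma) with Serpine2 lowered and by 0.59 (SE 0.07, adjusted p = 1.85e-05 in limma) with Slpi lowered; without shRenilla B the Serpine2 value kept its size (-0.33) with an adjusted p of 0.0707, and shSerpine2-2 alone gave -0.22 (adjusted p = 0.0679).

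Col6a2, the next chain of the same filament, lies on the same strand with 85161 bases between the genes. In the pooled comparisons it is named after its values were seen, since its mean was 35.6 normalized counts. It had 18.9 and 18.6 normalized counts with shSerpine2-1, 43.0 and 37.5 with shSerpine2-2, 32.3 and 31.2 with shSlpi-1 and 33.8 and 26.5 with shSlpi-2, against 55.8 and 58.4 with shRenilla. It was lower in every knockdown library, with a log2 fold change of -1.03 (SE 0.21, adjusted p = 0.00226 in limma) with Serpine2 lowered and -0.87 (SE 0.21, adjusted p = 0.00370 in limma) with Slpi lowered. With shSerpine2-2 alone it was -0.50 (adjusted p = 0.132). Its level per kb relative to Col6a1 was 0.0236 and 0.0242 with shSerpine2-1, 0.0457 and 0.0413 with shSerpine2-2, 0.0350 and 0.0364 with shSlpi-1 and 0.0548 and 0.0491 with shSlpi-2, against 0.0520 and 0.0539 with shRenilla. The first 3 of these lines lay below both controls and shSlpi-2 overlapped them.

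Col14a1, a collagen that sits on fibril surfaces, had 66.8 and 54.6 normalized counts with shSerpine2-1, 36.0 and 34.5 with shSerpine2-2, 73.6 and 88.4 with shSlpi-1 and 92.8 and 98.5 with shSlpi-2, against 50.6 and 49.6 with shRenilla. The Slpi libraries were highest and the shSerpine2-2 libraries lowest. The order of its group means was also that of the weakly read genes described at the end. The part of that general difference in Col14a1 was not tested. Col14a1 rose by 0.80 (SE 0.16, adjusted p = 0.00122 in limma) with Slpi lowered. Fbn1, named after its values were seen since its mean was 27.4 normalized counts, had 36.8 and 33.7 with shSerpine2-1, 20.2 and 25.3 with shSerpine2-2, 36.3 and 30.2 with shSlpi-1 and 29.96 and 30.3 with shSlpi-2, against 10.5 and 20.9 with shRenilla. Its rises of 0.88 (SE 0.27, adjusted p = 0.0280 in limma) with Serpine2 lowered and 1.03 (SE 0.27, adjusted p = 0.00677 in limma) with Slpi lowered were lost without shRenilla A (0.41 and 0.57, adjusted p = 0.378 and 0.173), and the Serpine2 call also without shSerpine2-1 A or B or shSerpine2-2 B, where the fold change stayed at 0.85, 0.91 and 0.80. Hairpin shSerpine2-2 alone gave 0.57 (adjusted p = 0.186).

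Col7a1 (chr9:108953586-108984875, plus strand), the anchoring fibril collagen that ties epithelia to the stroma, was raised in the Slpi lines. It had 1605 and 1640 normalized counts with shSerpine2-1, 1498 and 1497 with shSerpine2-2, 1896 and 2002 with shSlpi-1 and 2190 and 2125 with shSlpi-2, against 1635 and 1570 with shRenilla. All 4 Slpi libraries were above the other 6. The log2 fold change was 0.36 (SE 0.05, adjusted p = 2.62e-05 in limma) with Slpi lowered and -0.04 (SE 0.05, adjusted p = 0.590 in limma) with Serpine2 lowered, and the difference between targets was itself called, as given below.

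Fn1 and Col8a1, the most abundant interstitial genes per kb, moved little in the pooled comparisons. The difference of Fn1 in shSlpi-2 alone is given below. Fn1 gave -0.00 (SE 0.04, adjusted p = 0.995 in limma) with Serpine2 lowered and 0.09 (SE 0.04, adjusted p = 0.0994 in limma) with Slpi lowered. Col8a1 gave -0.01 (SE 0.05) with Serpine2 lowered and -0.00 (SE 0.05) with Slpi lowered, and its 10 libraries ranged from 12995 to 14910 normalized counts.

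Set directly against each other, the Serpine2 knockdowns had less Col7a1, Col14a1 and Lamb3 than the Slpi knockdowns and more Col4a1 (0.15, adjusted p = 0.00796 in limma) and Col4a2 (0.17, adjusted p = 0.0112 in limma), both chosen after their values were seen. Of the 32 genes, 5 were higher and 7 lower in the Serpine2 than in the Slpi knockdowns, where 10.3% and 7.21% of all genes tested were. The basement membrane class split evenly, with 4 higher and 4 lower of 16; of the interstitial genes 1 was higher and 2 lower, and Col7a1 was lower. The 4 smallest adjusted p-values included those of Col7a1 (-0.40, SE 0.04, adjusted p = 4.79e-06 in limma), Col14a1 (-0.91, SE 0.13, adjusted p = 0.000238 in limma) and Lamb3 (-0.24, SE 0.04, adjusted p = 0.00152 in limma). From the first hairpins alone, Lamb3 gave 0.04 (adjusted p = 0.781 in limma) and Col14a1 -0.41 (adjusted p = 0.226 in limma), neither called. Of the 3 members called there, only 1 (Col7a1) was among the 12, so the Col4a1 and Col4a2 calls were not kept. Over all genes 436 were called in place of 2157. With lines as units limma called 0 genes (419 at an unadjusted p under 0.05, 2 of them members).

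The 2 hairpins to one target often differed. Between shSerpine2-1 and shSerpine2-2, 7 of the 32 genes were higher and 4 lower with shSerpine2-1, where 6.98% and 7.69% of all genes tested were. Lama3 had 1078 and 1189 normalized counts with shSerpine2-1, against 1447 and 1430 with shSerpine2-2 (-0.35, SE 0.06, adjusted p = 0.00167 in limma), so shRenilla, at 1206 and 1207, lay between them. Fbln2 (-0.26, SE 0.05, adjusted p = 0.00296 in limma), Col6a2 (-1.06, SE 0.24, adjusted p = 0.00758 in limma) and Lamb3 (-0.27, SE 0.06, adjusted p = 0.00929 in limma) were lower with shSerpine2-1. Leaving out 1 of the 4 libraries compared left 2 to 4 of the 11 calls: 2 without shSerpine2-1 A, 3 without shSerpine2-1 B, 4 without shSerpine2-2 A and 3 without shSerpine2-2 B. Over all genes the calls were 404 to 696 in these fits, in place of 1805. The Lama3 and Fbln2 calls held in all of these. Col6a2 held in none, with a log2 fold change still at -1.16 to -0.96. The Lamb3 call was lost without shSerpine2-1 A, shSerpine2-1 B or shSerpine2-2 A, at a log2 fold change of -0.26, -0.27 and -0.22.

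Between shSlpi-1 and shSlpi-2, 3 genes were higher and 8 lower with shSlpi-1, where 13.7% and 12.3% of all genes tested were. A fit of only these 2 groups called 6 members in place of 11, and 1252 of all genes in place of 3204. Fbln2 (-0.76, SE 0.05, adjusted p = 8.28e-08 in limma) and Lamb3 (-0.82, SE 0.06, adjusted p = 2.37e-07 in limma) were lower with shSlpi-1, and Col4a5 was higher (0.63, SE 0.08, adjusted p = 2.65e-05 in limma). Tnc, a glycoprotein of healing and tumour stroma, had 911 and 935 normalized counts with shSlpi-1, against 1392 and 1229 with shSlpi-2 (-0.50, SE 0.07, adjusted p = 6.34e-05 in limma), while shRenilla had 1100 and 1117. Each hairpin differed from shRenilla in its own direction, at -0.26 (SE 0.07, adjusted p = 0.0113 in limma) for shSlpi-1 and 0.24 (SE 0.07, adjusted p = 0.00808 in limma) for shSlpi-2, and the pooled value was -0.01 (SE 0.06). Without shSlpi-1 A, 6 of the 11 calls remained, and the calls over all genes were 2160 in place of 3204. Among the 8 lower genes, Col27a1 reached the filter through shSlpi-2 (group mean 24.8 normalized counts, against 7.17 to 10.8 in the other groups), so its call supports nothing.

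Line by line against shRenilla, shSerpine2-1 had 6 higher and 3 lower members of 32 (background 5.09% and 5.38%), shSerpine2-2 had 7 and 3 (14.2% and 13.4%), shSlpi-1 had 5 and 3 (7.65% and 9.88%) and shSlpi-2 had 13 and 5 (20.4% and 21.9%). The shSlpi-2 line thus had the most calls among members and among all genes, and its 13 higher members include Col27a1. Against the same control pair, Agrn was called higher in each of the 4 lines, and Col4a5 was called lower in 3, shSlpi-1 being the exception (-0.14, adjusted p = 0.244). Fn1 was called in shSlpi-2 alone, with 53765 and 52062 normalized counts, against 47981 and 45323 in shRenilla (0.18, SE 0.05, adjusted p = 0.00569 in limma).

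**Figure D4:**
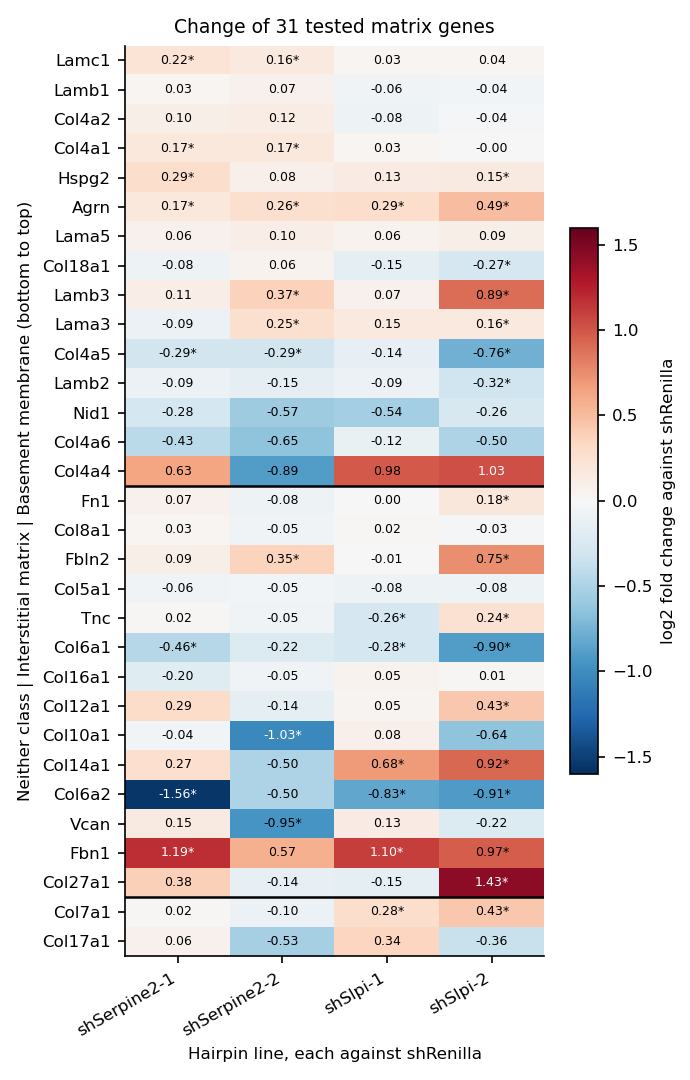
Log2 fold change of 31 tested genes in each hairpin line against shRenilla, with the value printed in each cell and a star where the limma adjusted p is under 0.05; black lines part the basement membrane, interstitial and remaining genes. Agrn is starred in all 4 columns, Tnc is starred in opposite directions in shSlpi-1 and shSlpi-2, and shSlpi-2 has 17 stars.

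Summed per kb, basement membrane genes made up 48.1% and 48.0% of the basement membrane and interstitial total with shSerpine2-1, 49.7% and 49.96% with shSerpine2-2, 47.4% and 48.1% with shSlpi-1 and 46.8% and 46.1% with shSlpi-2, against 47.1% and 46.1% with shRenilla. The shSerpine2 libraries and shSlpi-1 libraries were above both controls and shSlpi-2 overlapped them. With Fn1 left out, shSlpi-1 overlapped the controls too, at 67.7% and 68.6%, against 68.2% and 66.0% in shRenilla. Fn1 alone held 27.6% to 31.0% of the total in the 10 libraries. The basement membrane sum was 6685 ± 21.8 normalized counts per kb with shSerpine2-1, 6794 ± 42.9 with shSerpine2-2, 6347 ± 107 with shSlpi-1 and 6866 ± 107 with shSlpi-2, against 6097 ± 230 with shRenilla (SD, n = 2 each). The interstitial sum was 7227 ± 4.45 with shSerpine2-1, 6844 ± 96.3 with shSerpine2-2, 6957 ± 18.5 with shSlpi-1 and 7909 ± 30.8 with shSlpi-2, against 6981 ± 62.9 with shRenilla (SD, n = 2 each). These shares depend on which class holds Col8a1 and Fbln2: with both counted as basement membrane, and Col7a1 and Col17a1 as well, the shRenilla share was 65.8%.

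Genes that process collagen or connect cells to matrix went both ways. Where 2 values follow a gene, the first is with Serpine2 lowered and the second with Slpi lowered. Genes of the lists here and in the following paragraphs are given pooled over both hairpins. Whether 1 hairpin or 1 library carries a call is not shown. Of 25 tested genes of collagen modification and crosslinking, 3 rose and 5 fell with Serpine2 lowered and 3 rose and 6 fell with Slpi lowered (medians -0.05 and -0.06). Over all genes tested, as above, 10.7% rose and 10.8% fell with Serpine2 lowered and 16.5% rose and 18.3% fell with Slpi lowered, and none of these calls was kept with lines as units. Serpinh1, the collagen chaperone HSP47, rose with Slpi lowered (0.39, SE 0.06, adjusted p = 0.000127 in limma), while Plod1, a lysyl hydroxylase, fell (-0.50, SE 0.07, adjusted p = 3.46e-05 in limma). Loxl3, a lysyl oxidase that crosslinks collagen, fell with either target lowered (-0.38, SE 0.07, adjusted p = 0.00177 in limma, and -0.69, SE 0.07, adjusted p = 2.83e-06 in limma), as did Adamts14, a procollagen N-proteinase (-0.43 and -0.46, SE 0.07 each, adjusted p = 0.000304 and 5.55e-05 in limma). Loxl4, another lysyl oxidase, and Glt25d1, a collagen galactosyltransferase, rose with Serpine2 lowered (0.24, SE 0.04, adjusted p = 0.000473 in limma, and 0.25, SE 0.05, adjusted p = 0.00125 in limma).

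Of 19 tested matrix receptors, 3 rose and 5 fell with Serpine2 lowered and 4 rose and 6 fell with Slpi lowered (medians -0.07 and -0.08), beside the same all-gene shares of 10.7% and 10.8%, and 16.5% and 18.3%. Itga1, the α1 integrin chain that binds type IV collagen, fell by 0.59 (SE 0.09, adjusted p = 0.000404 in limma) with Serpine2 lowered and by 0.99 (SE 0.09, adjusted p = 8.52e-07 in limma) with Slpi lowered. Sdc1, a heparan sulfate proteoglycan receptor, rose (0.20, SE 0.05, adjusted p = 0.00477 in limma, and 0.33, SE 0.05, adjusted p = 4.24e-05 in limma), and Sdc2, its relative, fell (-0.24 and -0.27, SE 0.04 each, adjusted p = 0.000581 and 7.48e-05 in limma). Itga2, another collagen-binding chain, fell with Serpine2 lowered (-0.25, SE 0.05, adjusted p = 0.00191 in limma), and Itgb1, the β1 chain common to these receptors, rose with Slpi lowered (0.32, SE 0.05, adjusted p = 0.000168 in limma).

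Of 44 other matrix glycoproteins and proteoglycans, 18 were tested; 1 rose and 4 fell with Serpine2 lowered, and 2 rose and 9 fell with Slpi lowered (medians -0.13 and -0.20), where 10.7% and 10.8%, and 16.5% and 18.3%, of all genes did. Thbs1, thrombospondin 1, rose by 0.52 (SE 0.05, adjusted p = 4.27e-06 in limma) with Serpine2 lowered and, with Slpi lowered, by 0.42 (SE 0.05, adjusted p = 6.66e-06 in limma). Npnt, a basement membrane ligand of integrin α8β1, fell (-0.28, SE 0.06, adjusted p = 0.00465 in limma, and -0.47, SE 0.06, adjusted p = 3.27e-05 in limma), as did the latent TGF-β binding protein Ltbp4 (-0.26 and -0.40, SE 0.06 each, adjusted p = 0.00516 and 8.39e-05 in limma). Its relative Ltbp3 fell with Serpine2 lowered (-0.20, SE 0.05, adjusted p = 0.0114 in limma), and Mgp, the matrix Gla protein that limits calcification, fell with Slpi lowered (-1.51, SE 0.23, adjusted p = 8.71e-05 in limma).

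The 37 members below the filter were not tested, and their few reads differed by line. Summed, they had 156 and 153 normalized counts with shSerpine2-1, 67.6 and 73.5 with shSerpine2-2, 179 and 156 with shSlpi-1 and 316 and 394 with shSlpi-2, against 96.9 and 99.2 with shRenilla. The shSlpi-2 pair was highest, shSerpine2-1 and shSlpi-1 lay above the control and shSerpine2-2 below it. The same order held for all 11180 genes below the filter, which took 0.0909% and 0.0883% of reads with shSerpine2-1, 0.0487% and 0.0481% with shSerpine2-2, 0.106% and 0.0975% with shSlpi-1 and 0.159% and 0.181% with shSlpi-2, against 0.0638% and 0.0665% with shRenilla. All 37 of these members had a read in both shSlpi-2 libraries, against 22 and 30 in shRenilla. The part of this general difference in the values of weakly read members, such as Col27a1 (16.4 and 33.1 normalized counts with shSlpi-2, against 11.6 and 5.51 with shRenilla), was not tested. Group means of Col14a1 and Col4a4 ran in the same order of lines, while that of Fbn1 was lowest in shRenilla.

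**Figure D5:**
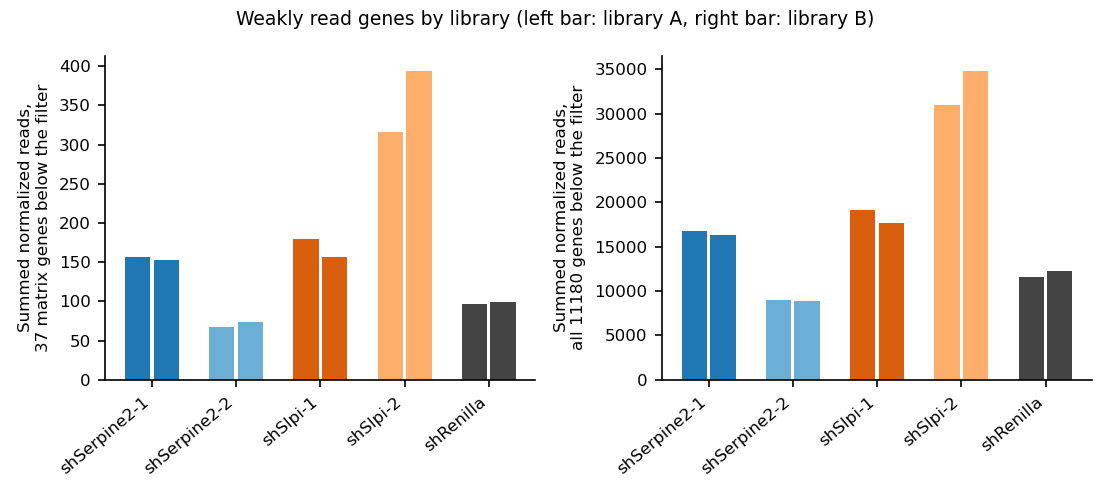
Summed normalized counts of the 37 matrix genes (left) and of all 11180 genes (right) whose mean was under 10, in each library (bars, A left and B right). Both panels have shSlpi-2 highest, at 316 and 394 for the matrix genes against 96.9 and 99.2 in shRenilla, and shSerpine2-2 lowest.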

How the data were processed

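The 10 libraries were made from 100 ng of total RNA each by NuGEN Ovation V2 amplification and sequenced at 76 bp, per the labels' protocols. The submitters' processing notes name Bowtie2, HTSeq, DESeq and build mm10. The sources used here give no versions, no annotation and no strand setting for the counting, so reads of a gene and of an overlapping antisense gene cannot be told apart. The values deposited by the authors are on a log2 scale with a floor of 6.733366499, the form of DESeq's variance-stabilizing transformation. Inverting it gave normalized counts, of which 100% were whole multiples of 1 read in each library (within 0.01 reads). The transformation is inferred from the values.

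Genes with a mean of at least 10 normalized counts were fitted as log2(normalized count + 1) with limma 3.58.1 (R 4.3.3), 5 group means, trended variance and Benjamini-Hochberg adjustment at 0.05. Weak genes' fold changes are understated on this scale. The code was also run on simulated data with equal noise in every library, which does not cover the unequal noise of these groups. Lengths and positions are from GENCODE on GRCm38. Library letters did not pair across groups: 10 correlations of deviations lay between -0.0727 and 0.0724. Named were the 10 highest genes per kb, called members with a mean of at least 50, the 4 smallest adjusted p-values between lines or targets, and up to 4 genes per context list. In the pooled comparisons Col6a2, Fbn1 and Col4a4, with means under 50, were named after their values were seen. Members and lists were chosen with earlier results of these data known. Values of 1 tested member and 1 marker are not reported here, though counts, medians and sums include them.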

Additional observations from a re-analysis of the deposited data

Results flagged for a closer look

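Several matrix genes differed between the 2 hairpins to one target, by limma's direct test of the difference (log2 fold change, first hairpin minus second, adjusted p under 0.05). Between shSerpine2-1 and shSerpine2-2 the values were -0.35 for Lama3, -0.26 for Fbln2, -1.06 for Col6a2, -0.27 for Lamb3, 0.76 for Col14a1, 0.20 for Hspg2, 1.10 for Vcan, 1.52 for Col4a4, 0.43 for Col12a1, 0.99 for Col10a1 and 0.15 for Fn1. Of these, Col6a2, Vcan, Col4a4 and Col10a1 had a mean under 50 normalized counts. The calls of genes higher with shSerpine2-1 were not kept without shSerpine2-1 A or without shSerpine2-2 B, fits that leave 1 library in a group. All genes below the filter summed to 16720 and 16280 normalized counts with shSerpine2-1, against 9008 and 8849 with shSerpine2-2. Vcan, Col4a4 and Col10a1 ran the same way and Col6a2 the other way. The part of this general difference in their values was not tested.

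Between shSlpi-1 and shSlpi-2 the values were -0.76 for Fbln2, -0.82 for Lamb3, 0.63 for Col4a5, -0.50 for Tnc, 0.62 for Col6a1, -0.21 for Agrn, -0.18 for Fn1, 0.70 for Col17a1, -1.58 for Col27a1 and -0.39 for Col12a1. Col27a1 had a mean of 11.8 normalized counts and reached the minimum of 10 through shSlpi-2 (24.8, against 7.17 to 10.8 in the other groups), so its difference is given as a value that supports nothing.

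The 37 matrix genes that were too weakly read to be tested summed to a mean of 155 normalized counts with shSerpine2-1, 168 with shSlpi-1 and 355 with shSlpi-2, each above the 98.0 with shRenilla.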

How the results depend on the processing

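Counts of called members kept within 1.5 times of the reported count under the deposited transformed values, other pseudocounts, quantile or upper-quartile scaling, limma-voom on the recovered reads and the replicate block by library letter. The block counts were 11, 13, 12, 11 and 11 in place of 11, 14, 12, 11 and 11, and it lost the Col4a4 call (adjusted p = 0.0543) among the named genes. With no filter the Serpine2 count was 7 in place of 11 (Lamc1, Hspg2, Col4a1 and Fbn1 were lost, and Hspg2 and Col4a4 with Slpi lowered) and the Serpine2 against Slpi count 20 in place of 12. Col4a4 was also lost at a pseudocount of 0.5 and after quantile scaling, and Lama3 and Hspg2 with Slpi lowered were lost in a fit of only the compared groups. With lines as units all pooled counts were 0. With hairpin 1 of each target only, the Slpi count was 8 and the Serpine2 against Slpi count 3. Of these, 7 and 1 were among the reported calls. A fit of only the compared groups gave 6 in place of 11 between the Slpi lines and 12 in place of 11 with Serpine2 lowered. The calls over all genes were then 1252 in place of 3204 and 4176 in place of 2643. Leaving out 1 library gave 2 to 12 calls with Serpine2 lowered, 10 to 18 with Slpi lowered, 8 to 16 between targets, 2 to 15 between Serpine2 lines and 6 to 14 between Slpi lines.

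The class medians below moved by more than the spread between libraries under some choices, and the cause was not tested; the basement membrane median with Serpine2 lowered did so under none of those run. The interstitial median with Serpine2 lowered (-0.03) was 0.0721 with no filter, -0.0136 at a mean of at least 50, 0.0531 and -0.11 with hairpin 1 or 2 only, -0.0854 with the class borders moved (Col8a1, Fbln2, Col7a1 and Col17a1 into the basement membrane), and -0.0931 to -0.0346 leaving out 1 library. With Slpi lowered the basement membrane median (0.02) was 0.14 with no filter and -0.0214 to 0.068 leaving out 1 library, and the interstitial median (0.01) was 0.98 with no filter, 0.0338 at a mean of at least 50, 0.10 with hairpin 2 only, -0.0082 with the filter set on shRenilla alone (added after seeing the data), and 0.0144 to 0.10 leaving out 1 library. Between targets the basement membrane median (0.03) was -0.0755 with no filter, 0.0843 at a mean of at least 50, -0.0167 with moved borders and 0.0191 to 0.0757 leaving out 1 library. The interstitial median there (-0.16) was -0.0748 on the deposited scale, -0.13 with a pseudocount of 10, -0.74 with no filter, -0.0919 at a mean of at least 50, -0.0692 after quantile scaling, 0.019 and -0.34 with hairpin 1 or 2 only, and -0.16 to -0.12 leaving out 1 library. With no filter the median of all genes itself moved to 0.16 with Slpi lowered and -0.11 between targets.

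The basement membrane share in shRenilla (46.6%) was 43.3% with longest transcripts as lengths, 43.2% with no length, 65.8% with moved borders, 67.1% without Fn1 and 46.1% to 47.1% leaving out 1 library. Directions turned for 2 genes, both with hairpin 1 only: Fbln2 with Slpi lowered (-0.01095) and Lamb3 between targets (0.03731). Depth limits the 37 members below the filter, of which no level or difference was tested.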
